A study of Mus musculus with 10 samples.

Results

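Induced embryoid bodies (EBs) were set against the fetal organ whose cells they were meant to yield, with 2 arrays of day 13 Dox(+) EBs and 2 arrays of whole pancreas from E15.5 mouse embryos, 4 of the 10 arrays of the series. The question was how far the transcripts of an ES cell culture driven by Pdx1 and Ngn3 overlap with those of a pancreas at the stage when endocrine and exocrine cells are forming. Of the 34967 probes on the array that report transcripts, 26862 were compared, namely those with both EB arrays or both pancreas arrays above background and a value in each tissue. They include 1 probe for each of 15231 named genes.

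The Dox(+) EBs came from mouse ES cells of the Ainv18 line that carried a tet-on Pdx1-IRES-Ngn3 cassette at the Hprt locus (tet-pdx1/ngn3). They were treated with activin A, then with BMP4, bFGF and activin A, received doxycycline (Dox) at 1 µg/ml from day 4, and were kept as floating EBs in N2/B27 medium to day 13, with no sorting of cells. The pancreas was untreated whole tissue, so acinar, duct, endocrine, mesenchymal, vascular and blood cells all entered the RNA. Neither its strain nor the number of embryos behind each array is given in the sources used here. Dox(−) EBs of the same ES cells without Dox, βTC6 insulinoma cells and islets (2 arrays each) appear below only as levels beside the comparison. In the labels of the EB arrays, 1 field names Pdx1-IRES-Ngn3 and another names activated Notch4 as the induced gene, while the methods of the study describe the former.

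Levels are spot intensities after background subtraction, divided by the median probe of the same array, so that a level of 1 is that of the median probe. Levels under 0.27 were set to 0.27, which is called the floor, and a level describes only its own probe. A gene was called higher or lower where limma gave a Benjamini-Hochberg adjusted p under 0.05 over all 26862 probes. Differences are log2(Dox(+) EBs) minus log2(pancreas) with the standard error of the fit, and n = 2 arrays per group except where 1 array is named. The fit pools the spread of each probe over the arrays of all 5 groups. Standard errors and p-values thus also rest on the Dox(−), βTC6 and islet arrays. A lone array adds nothing to that spread and is assumed to vary like the rest. A fold is written "at least" where the dimmer group was at background on both arrays or the brighter group was saturated on both.

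In developing pancreas, multipotent cells expressing Pdx1, Ptf1a and Nkx6-1 separate into acinar cells, which keep Ptf1a and fill with zymogens, and a trunk from which cells that transiently express Ngn3 leave to become islet cells. Ngn3 drives the same step in the enteroendocrine cells of stomach and intestine. Endocrine cells and neurons share the regulated secretory pathway, many of its vesicle proteins, and several bHLH, LIM and paired-domain transcription factors, so genes of that program do not by themselves mark a pancreatic cell.

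The 2 tissues differed at most probes. In Dox(+) EBs 9325 probes were higher than in pancreas, 34.7% of those tested, and 7592 (28.3%) were lower, together 63.0%, with 3560 (13.3%) and 3387 (12.6%) past 2-fold. Among the 15231 named genes 39.2% were higher and 27.4% lower, and the median difference was 0.15 on the log2 scale. The 2 EB arrays did not overlap with the 2 pancreas arrays at 84.6% of the probes tested. These shares are the background for each count below. Probes above background on both arrays numbered 22638 in both groups, 2067 in the EBs alone and 2255 in the pancreas alone. Replicate arrays correlated at r = 0.995 and 0.996 across probes and the group means at 0.866, where probes are not independent replicates. Slide numbers of the EB arrays and of the pancreas arrays lie in separate ranges, so the batch of slides and the kind of tissue cannot be told apart at any value below. The 2 arrays of a group are labelled as biological replicates with no word on separate cultures or dissections. Each p-value thus reflects only how far replicate arrays within the 5 groups differed, which may be technical. In such bulk RNA, fewer cells of a type and less RNA per cell cannot be told apart.

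**Figure D1:**
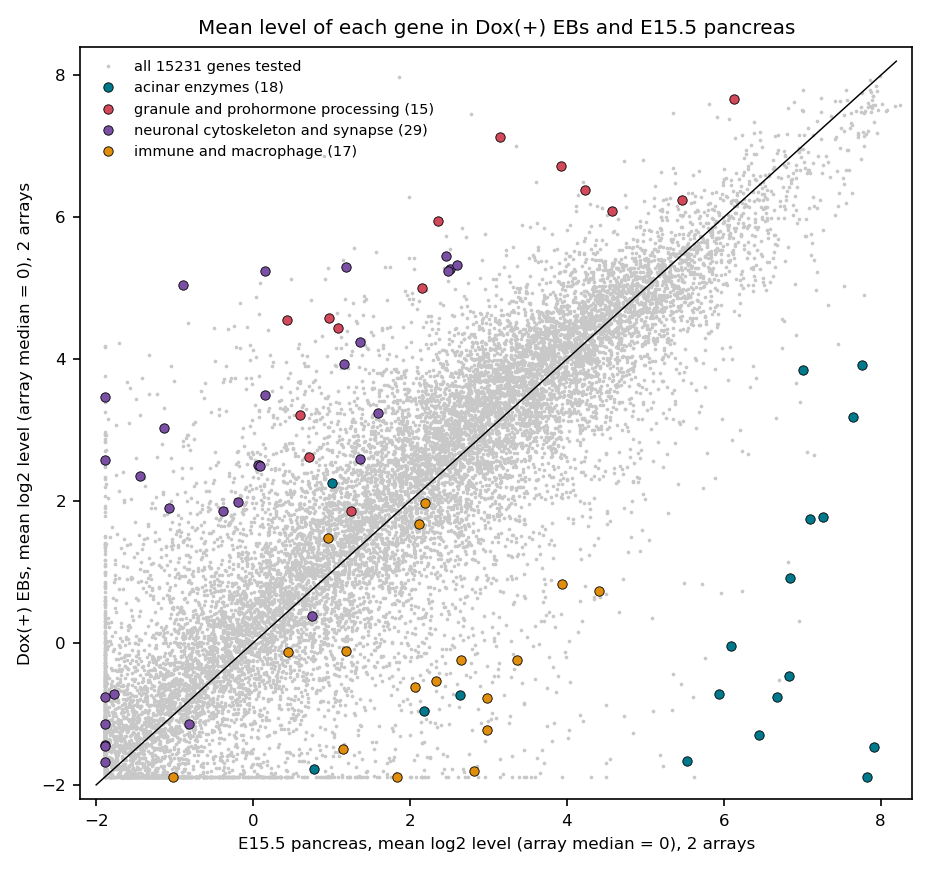
Mean log2 level of 15231 named genes in E15.5 pancreas (x axis) and in day 13 Dox(+) EBs (y axis), each point being 1 gene as the mean of 2 arrays, with the diagonal as the line of equal level. All acinar enzymes tested but Pla2g1b fall to the lower right of the line, while granule genes and most genes of the neuronal cytoskeleton and synapse lie above it, and immune genes lie mostly below it.

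Digestive enzymes of acinar cells led the genes that were lower in the EBs, and the gut hormone genes Gip, Sct and Nts were among the 15 with the largest positive difference. Promoters are printed for acinar enzymes that were lower and hormones that were higher, with the largest differences, because factors measured below bind known letters. The acinar complex of Ptf1a and Rbpjl recognises an E-box, CACCTG, beside TTTCCC, and bHLH proteins of the Ngn3 and Neurod1 type recognise E-boxes such as CAGCTG and CAGATG. The windows run from 250 bases before to 50 bases after the start, on the transcribed strand, 5′ to 3′ (RefSeq, build GRCm38.p6), with matches on either strand in capitals, CACCTG and TTTCCC in the acinar genes and CAGCTG and CAGATG in the hormone genes.
Cela3b (chr4:137430471-137430770, minus strand): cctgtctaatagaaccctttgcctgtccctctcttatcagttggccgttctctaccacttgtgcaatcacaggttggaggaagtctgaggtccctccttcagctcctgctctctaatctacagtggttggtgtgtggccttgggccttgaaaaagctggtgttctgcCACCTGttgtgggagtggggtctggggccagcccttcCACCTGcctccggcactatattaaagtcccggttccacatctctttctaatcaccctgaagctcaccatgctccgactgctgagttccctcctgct
Amy2a5 (chr3:113258650-113258949, minus strand): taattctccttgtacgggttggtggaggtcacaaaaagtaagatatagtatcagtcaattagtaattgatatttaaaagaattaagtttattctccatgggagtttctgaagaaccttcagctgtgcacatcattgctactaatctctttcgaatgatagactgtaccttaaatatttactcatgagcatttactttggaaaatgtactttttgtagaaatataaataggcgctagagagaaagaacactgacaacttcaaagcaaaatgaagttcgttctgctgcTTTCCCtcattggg
Cela2a (chr4:141825956-141826255, minus strand): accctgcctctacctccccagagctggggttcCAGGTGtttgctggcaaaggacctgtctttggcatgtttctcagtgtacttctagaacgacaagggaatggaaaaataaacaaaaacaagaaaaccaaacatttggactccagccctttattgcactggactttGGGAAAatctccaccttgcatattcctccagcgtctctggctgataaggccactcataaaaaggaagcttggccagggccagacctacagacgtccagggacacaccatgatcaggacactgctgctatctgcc
Cpb1 (chr3:20275684-20275983, minus strand): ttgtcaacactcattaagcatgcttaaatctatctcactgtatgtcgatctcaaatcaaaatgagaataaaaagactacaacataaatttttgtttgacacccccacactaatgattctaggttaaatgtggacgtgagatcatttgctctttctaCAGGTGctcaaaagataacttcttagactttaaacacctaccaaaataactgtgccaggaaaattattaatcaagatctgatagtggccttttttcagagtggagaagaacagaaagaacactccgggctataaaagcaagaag
Gip (chr11:96024295-96024594, plus strand): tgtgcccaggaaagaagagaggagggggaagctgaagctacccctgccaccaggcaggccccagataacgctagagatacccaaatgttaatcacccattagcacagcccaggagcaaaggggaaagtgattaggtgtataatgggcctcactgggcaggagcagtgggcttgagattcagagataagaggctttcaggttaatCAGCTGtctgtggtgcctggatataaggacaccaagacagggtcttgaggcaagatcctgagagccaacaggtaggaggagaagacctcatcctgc
Sct (chr7:141279084-141279383, minus strand): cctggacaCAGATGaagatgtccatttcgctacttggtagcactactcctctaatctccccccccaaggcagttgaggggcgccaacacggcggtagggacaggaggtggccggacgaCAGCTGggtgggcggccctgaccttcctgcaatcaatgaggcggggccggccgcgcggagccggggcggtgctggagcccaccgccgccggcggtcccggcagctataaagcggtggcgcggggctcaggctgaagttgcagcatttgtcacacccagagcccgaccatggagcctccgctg
Nts (chr10:102490369-102490668, minus strand): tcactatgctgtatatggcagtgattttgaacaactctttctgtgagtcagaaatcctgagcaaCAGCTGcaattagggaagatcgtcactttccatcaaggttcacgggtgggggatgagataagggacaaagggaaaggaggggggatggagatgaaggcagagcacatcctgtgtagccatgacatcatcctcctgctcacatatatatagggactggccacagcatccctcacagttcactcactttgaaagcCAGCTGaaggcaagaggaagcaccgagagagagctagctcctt
Of the 17 acinar enzyme genes lower in the EBs, 13 had a promoter in the table, 1 each, and 9 of these held CACCTG on either strand and 6 held TTTCCC on either strand. Over all 32851 promoters of the table the shares were 20.2% and 25.2%. The 12 islet or gut hormone genes higher in the EBs had 16 promoters, of which 4 held CAGCTG, which is its own complement, against 16.3% of all promoters, and 6 held CAGATG on either strand against 17.2%. The 2 motifs of each pair did not overlap in the printed windows. Among the acinar windows printed, only that of Cela2a held both motifs, and there they did not lie side by side. The TTTCCC of Amy2a5 lay after the start. Each count takes 1 motif alone, so none of them counts the paired site. Several of the enzymes are paralogs, whose promoters are not independent, and a match shows only that the letters are present.

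Among islet hormones the order differed from gene to gene. Of 4 measured hormones 3 were higher in Dox(+) EBs and glucagon was lower. Sst, the hormone of δ-cells, stood at 119.9 and 103 in the EBs and 26.2 and 26.6 in the pancreas, a difference of 2.08 ± 0.09 (adjusted p = 7.82e-09). Gcg, the α-cell hormone, stood at 41.1 and 41.9 in the EBs and 93.2 and 97.3 in the pancreas, 2.3-fold lower (−1.20 ± 0.12, adjusted p = 1.01e-05). Both EB arrays thus lay above both pancreas arrays for Sst and below them for Gcg, while 84.6% of all probes tested had no overlap. Ppy, made by PP-cells, had levels of 10.4 and 10.3 against 6.41 and 6.43 (0.69 ± 0.13). Ghrl, made by ε-cells and by the stomach, had 38.5 and 31.6 against 21.4 and 19.02 (0.79 ± 0.24, adjusted p = 0.0142), and this call was lost without the first EB array (0.65, adjusted p = 0.121) or without the second pancreas array (0.71, adjusted p = 0.0942). No probe names Ins1, Ins2 or Iapp alone in the tables used here, so the β-cell hormones were not analysed here. The study itself lists a joint Ins1 and Ins2 level that was lower in Dox(+) EBs than in E15.5 pancreas.

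The hormones of the gut were divided, and several had large differences. Of 15 enteroendocrine hormone genes tested, 9 were higher in the EBs and 4 lower, with a median difference of 0.79. Gip, the incretin of K-cells of the duodenum, was saturated on both EB arrays at 243 and 259 and stood at 3.8 and 3.44 in the pancreas, at least 69.4-fold higher (6.12 ± 0.17, adjusted p = 3.18e-10). In the other arrays of the series Gip remained under 1, with 0.614 and 0.631 in the uninduced EBs and 0.413 and 0.459 in islets. Sct, the secretin of S-cells, had levels of 118 and 115 in the EBs, 1.85 and 1.88 in the pancreas and 3.26 and 2.93 in Dox(−) EBs, and was 62.4-fold higher in Dox(+) EBs than in pancreas (5.96 ± 0.10). Both genes thus separated the induced EBs from the pancreas and from the uninduced EBs. Unlike Gip, Sct was also high in βTC6 cells, at 401 on the 1 array that measured it, and was at the floor in islets.

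Cck, the hormone of I-cells, stood at 194 and 159.6 in the EBs, 1 array of which was saturated, and at 6.89 and 6.81 in the pancreas (4.68 ± 0.11). Nts, neurotensin, of N-cells of the ileum and of neurons, stood at 15.4 and 22.7 against 0.27 and 0.348, with 1 pancreas array at background (5.93 ± 0.37). Its EB arrays were farther apart than those of Gip or Sct but did not overlap with the pancreas arrays, as at 84.6% of all probes tested. The neuropeptides Cartpt (33.5 and 34.2 against 6.84 and 6.54), Gal (3.01 and 2.29 against 0.337 and 0.337) and Tac1 (2.00 and 2.04 against 0.651 and 0.581) were higher as well. Pyy, peptide YY of L-cells and of fetal islet cells, was abundant in both tissues, with 213 and 231 (saturated) in the EBs and 133 and 124 in the pancreas, a difference of 0.79 ± 0.14. Gast, gastrin, which fetal islets and the antrum make, went the other way, at 2.04 and 1.67 in the EBs and 8.19 and 7.6 in the pancreas (−2.10 ± 0.13).

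**Figure D2:**
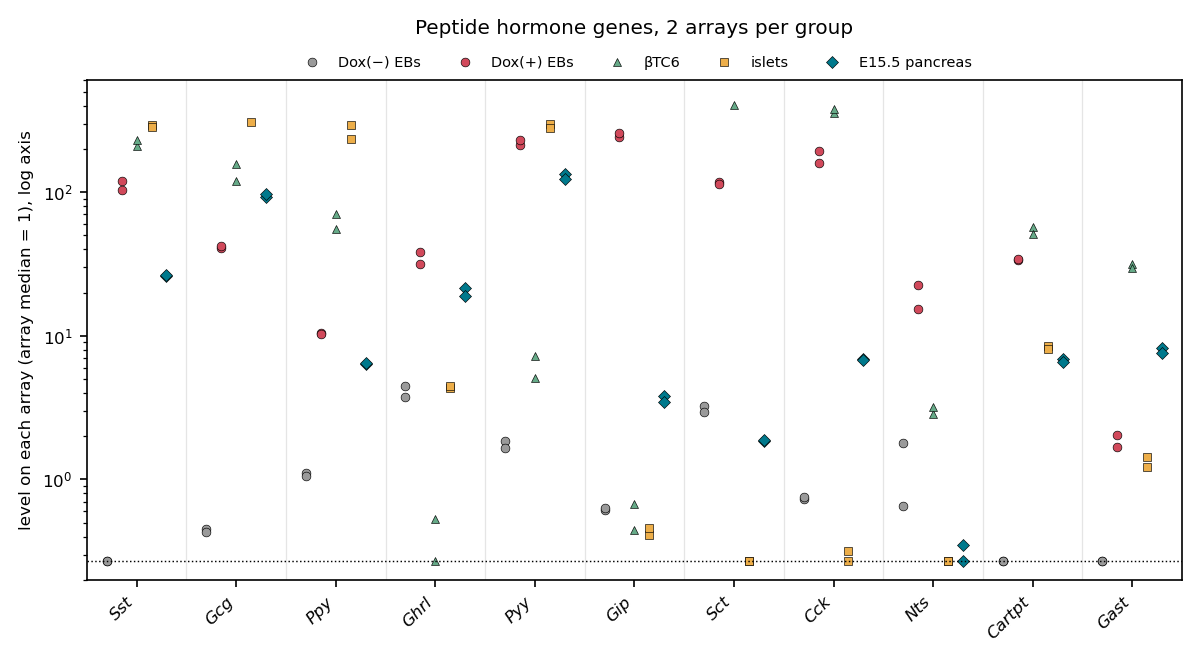
Level of 11 islet and gut hormone genes on each of the 10 arrays (log axis, array median = 1), with 2 points per group and the dotted line at the floor of 0.27. Gip, Sct and Cck sit far higher in Dox(+) EBs than in pancreas, while Gcg and Gast sit higher in pancreas.

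All 15 genes of the secretory granule and of prohormone processing that were tested were higher in the EBs, with a median difference of 2.61 against 0.15 over all named genes. Chga, chromogranin A, a core protein of the granule, stood at 105 and 105 in the EBs and 15.1 and 15.4 in the pancreas (2.79 ± 0.08, adjusted p = 5.44e-10). Scg3, which sorts chromogranin A into granules, stood at 161 and 122 against 8.63 and 9.15 (3.98 ± 0.13). Resp18, a neuroendocrine protein of the regulated pathway, was 17.3-fold higher, at 21.4 and 25.6 against 1.23 and 1.49. Processing enzymes were higher too. Pcsk1, prohormone convertase 1, which cleaves proinsulin and proGIP, stood at 3.99 and 3.33 against 2.42 and 2.35 (0.61 ± 0.13), and Cpe, carboxypeptidase E, which trims the products, was saturated in the EBs at 202 and 204 and stood at 68.8 and 70.9 in the pancreas, at least 2.9-fold higher. Ptprn, an insulin granule protein also called IA-2, stood at 68.2 and 55.9 against 5.14 and 5.14, whereas its paralog Ptprn2 stood at 85.4 and 67.8 against 45.3 and 42.9.

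The docking and fusion machinery went the same way, with 18 of 24 genes tested higher, 2 lower and a median of 1.85. Rab3c, a vesicle GTPase, stood at 23.2 and 20.4 in the EBs and 0.697 and 0.723 in the pancreas (4.94 ± 0.12). Snap25, the SNARE of the plasma membrane, stood at 39.7 and 37.5 against 5.5 and 5.92, and the calcium sensor Syt4 at 5.11 and 5.08 against 0.39 and 0.346. The 2 genes that were lower were Rims2, an active zone protein that β-cells use for granule docking (11.3 and 9.47 against 42.8 and 40.2), and Sytl4, granuphilin, which tethers insulin granules (10.9 and 8.11 against 17.1 and 17.4). Among 18 potassium channel genes 11 were higher and 2 lower. Kcnq1, a channel of exocrine and other epithelia, was at background in the EBs and stood at 13.1 and 12.2 in the pancreas, at least 44.8-fold lower in the EBs, and Kcnc1, a fast channel of neurons, stood at 6.01 and 5.12 against 0.574 and 0.499.

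Transcription factors of the endocrine lineage were higher for 13 of 19 genes tested and lower for 2, with a median of 1.50. Neurod1, a direct target of Ngn3, stood at 32.1 and 29.1 in the EBs and 3.81 and 4.37 in the pancreas (2.90 ± 0.11, adjusted p = 2.13e-09). St18, a zinc finger factor of endocrine progenitors, stood at 16.0 and 14.2 against 2.25 and 1.88. Pax6 and Isl1, needed for islet cell maturation, stood at 37.2 and 35.2 and 44.6 and 38.2 in the EBs against 8.99 and 10.3 and 12.7 and 12.1 in the pancreas, which is 3.76-fold and 3.32-fold higher. Each of these 4 factors was higher on both EB arrays than on both pancreas arrays. Arrays of the groups did not overlap at 84.6% of all probes tested. Irx1 and Irx2, which in the endocrine pancreas belong to α-cells, stood at 5.65 and 5.26 against 1.26 and 1.26 and 4.59 and 3.4 against 1.05 and 0.832, Pax4 stood at 17.2 and 16.6 against 5.55 and 6.4, and Hhex, a δ-cell factor, at 8.74 and 7.16 against 3.66 and 3.75.

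Nkx2-2, required for α- and β-cells, is an exception in that its levels overlapped, at 10.1 and 7.84 in the EBs and 8.66 and 9.32 in the pancreas (−0.02 ± 0.13, adjusted p = 0.923). Mafa, a factor of mature β-cells, was lower in the EBs at 0.376 and 0.296 against 1.62 and 2.07 (−2.46 ± 0.25), and so was Neurod2 (0.371 and 0.36 against 1.97 and 1.86). The probes of the 2 induced genes carried little signal in either tissue. Neurog3 stood at 0.447 and 0.557 in the EBs and 0.441 and 0.637 in the pancreas and was not called, and Pdx1 was at background on both EB arrays and on 1 pancreas array (0.281 and 0.331) and was not tested. Pdx1, a defining marker of the organ, was thus above background on only 1 of the 4 arrays at this probe. Both arrays of at least 1 other group of the series were above background at it. The study stained Pdx1 and Ngn3 protein as positive controls in Dox-treated EBs of these ES cells, at a later day and under another protocol. Whether the 2 probes detect the transcript of the cassette was not tested.

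Genes of glucose sensing and regulated insulin secretion showed no such shift, with 2 of 13 tested higher, 7 lower and a median of −0.42. Slc30a8, the zinc transporter of insulin granules, stood at 0.47 and 0.522 in the EBs and 2.24 and 2.28 in the pancreas (−2.19 ± 0.11, adjusted p = 1.67e-08). G6pc2, an islet glucose-6-phosphatase, stood at 0.823 and 0.81 against 1.83 and 2.00, and Slc2a2, the GLUT2 transporter, at 1.73 and 1.7 against 3.05 and 3.71. All 3 were lower in the EBs, but their pancreas levels were themselves low beside those of islets (101 and 87.3 for Slc30a8, 35.9 and 30.4 for G6pc2 and 72.6 and 73.5 for Slc2a2). The KATP channel subunits Kcnj11 (0.493 and 0.442 against 0.36 and 0.477) and Abcc8 (11.6 and 11.0 against 13.2 and 12.2) were not called, nor was Ucn3, a gene of mature β-cells (0.849 and 0.784 against 0.862 and 0.754). Cacna1c, an L-type calcium channel, was higher (8.62 and 6.95 against 3.22 and 2.83).

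Exocrine genes gave the widest gap of all lists. Of 18 acinar enzyme genes tested 17 were lower in the EBs, with a median of −5.70. Cela3b, an elastase, was at the floor on both EB arrays and saturated on both pancreas arrays at 227 and 227, at least 840.1-fold lower in the EBs (−9.71 ± 0.10, adjusted p = 3.53e-13). Amy2a5, pancreatic amylase, stood at 0.27 and 0.484 in the EBs, 1 array of which was at background, and was saturated in the pancreas at 255 and 229.7. Cpb1, carboxypeptidase B, stood at 0.6 and 0.583 against 104 and 101 (173-fold lower), and Cela2a at 0.42 and 0.395 against 88.3 and 86.0 (214-fold lower). All 17 were past 2-fold, but the gap was uneven.

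A few acinar genes were present in the induced EBs at a level well over the floor. Try5, a trypsinogen, stood at 15.0 and 14.0 with Dox, 0.27 and 0.27 without Dox and 127 and 131 in pancreas, so it was 8.93-fold lower than in pancreas. Cpa1, carboxypeptidase A, which marks multipotent tip cells before it marks acini, stood at 13.1 and 17.4 with Dox, 0.478 and 0.45 without Dox and 225 and 210.0 in pancreas, where it was saturated. Clps, colipase, stood at 9.97 and 8.35, 3.76 and 4.33 and 227 and 176 in the same order of groups. Pla2g1b, pancreatic phospholipase A2, which the stomach and gut also make, was the only enzyme higher in Dox(+) EBs than in pancreas, at 5.09 and 4.46 against 2.07 and 1.94, and stood at 23.5 and 22.5 in Dox(−) EBs.

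The factors that control acinar genes, with proteins of zymogen secretion, were lower for 14 of 15 genes tested (median −2.97). Ptf1a stood at 4.22 and 3.95 in the EBs and 30.5 and 33.3 in the pancreas (−2.97 ± 0.17, adjusted p = 5.1e-08), and Rbpjl, its partner in mature acinar cells, at 5.74 and 5.41 against 36.5 and 38.4 (−2.75 ± 0.10). Nr5a2, a nuclear receptor that acts with them, stood at 0.874 and 0.759 against 9.85 and 11.1. Bhlha15, also called Mist1, which shapes the secretory apparatus, stood at 0.397 and 0.293 against 1.5 and 1.54, with 1 EB array at background. Erp27, an ER protein of acinar cells, was at background in the EBs and stood at 48.8 and 49.6 in the pancreas, at least 182-fold lower. Spdef stood at 1.41 and 1.29 against 25.7 and 25.0, and Cckar, the receptor through which Cck releases enzymes, at 1.67 and 2.08 against 27.8 and 24.8. The ligand and the receptor thus differed in opposite directions, Cck being higher and Cckar lower in the EBs. Gata4 was not called (3.71 and 3.87 against 3.83 and 4.25). Of 5 Reg lectins tested 3 were higher in the EBs and 2 lower, with a median of 0.52. Reg1 and Reg3d were lower, Reg1 on the 1 EB array that measured it. Reg2, Reg3a and Reg4 were higher. Reg4, a lectin of enteroendocrine and goblet cells, stood at 3.07 and 2.35 against 0.476 and 0.504. Where all 4 arrays had to be above background, only 3 lectins were tested, with 3 higher and 0 lower.

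**Figure D3:**
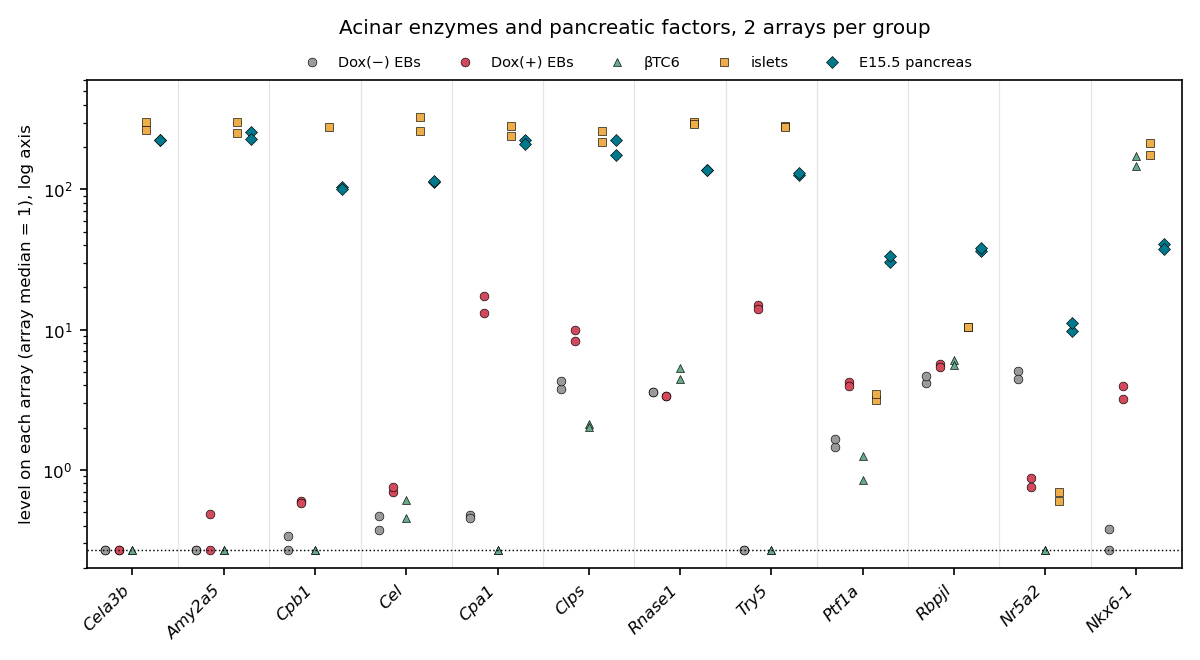
Level of 8 acinar enzyme genes, of the acinar factors Ptf1a, Rbpjl and Nr5a2 and of Nkx6-1 on each of the 10 arrays (log axis, array median = 1; dotted line, floor of 0.27). Pancreas arrays lie above Dox(+) EB arrays for all 12 genes.

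Factors of pancreatic progenitors split, with 3 of 13 tested higher in the EBs and 7 lower (median −0.67). Nkx6-1, which marks the trunk and then β-cells, stood at 3.96 and 3.21 in the EBs, 0.27 and 0.382 in Dox(−) EBs and 40.6 and 37.5 in the pancreas, 10.9-fold lower in Dox(+) EBs (−3.45 ± 0.17, adjusted p = 1.82e-08). Sox9, a factor of progenitors and ducts, stood at 3.37 and 2.91 against 7.01 and 6.51 (−1.11 ± 0.19), and Hnf4a at 3.79 and 3.18 against 5.74 and 5.59. Nkx6-2, the paralog of Nkx6-1, was above background only in the EBs of these 2 tissues, at 1.46 and 1.17, at least 4.85-fold higher. The endoderm factors Foxa2 (11.1 and 10.0 against 6.17 and 5.22) and Gata6 (15.3 and 13.6 against 6.08 and 6.3) were higher in the EBs. Hes1 and Onecut1 were also called lower, at low levels.

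Duct genes were lower for 10 of 18 tested and higher for 3 (median −0.90). Cldn10, a claudin of the early pancreatic epithelium and of acini, stood at 2.02 and 2.4 in the EBs and 115 and 111 in the pancreas (−5.67 ± 0.12), and Muc1, an apical mucin, at 1.62 and 1.7 against 75.6 and 74.2 (−5.50 ± 0.15). The keratin Krt19 stood at 9.31 and 10.4 against 25.8 and 27.9, with 81.9 and 80.5 in Dox(−) EBs. Those higher were Tff3, a trefoil peptide of gut goblet cells (54.1 and 41.9 against 2.51 and 2.37, with 256 and 193 in Dox(−) EBs), Onecut2 (16.3 and 14.5 against 1.61 and 1.54) and Slc4a4 (4.46 and 4.26 against 0.837 and 0.871). Other epithelial genes were divided, with Cdh1, E-cadherin, at 25.0 and 20.3 against 58.2 and 51.8 and Cldn3 at 6.31 and 6.73 against 71.4 and 79.3, both lower, and Krt8 (27.8 and 20.8 against 5.21 and 5.12) and Cldn6 (9.75 and 7.85 against 4.15 and 3.35), both higher. Over the 26 genes of gut endoderm and epithelium 10 were higher and 12 lower, with a median of −0.13.

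Genes of neighbouring endodermal organs showed no single direction. Of 14 intestinal genes 7 were higher and 5 lower, or 4 and 2 with a floor of 1. Cdx2, the master factor of intestine, stood at 4.05 and 3.13 in the EBs against 0.617 and 0.536 (2.63 ± 0.20), and Cdh17, its target, at 4.42 and 3.39 against 0.723 and 0.721, both higher, with 45.6 and 48.2 for Cdx2 and 19.8 and 20.4 for Cdh17 in Dox(−) EBs. Shh, which is held off in pancreatic endoderm and is expressed in gut, stood at 1.67 and 1.28 in the EBs and was at background in the pancreas, at least 5.43-fold higher. Enterocyte genes were divided, with Anpep at 16.1 and 16.2 against 50.0 and 49.3 and Fabp1 at 0.342 and 0.2912 against 1.47 and 1.61, both lower, and Fabp2 at 1.17 and 0.904 against 0.417 and 0.507 and Apoc3 at 1.38 and 1.1 against 0.27 and 0.27, both higher. Of 20 liver genes 9 were higher and 8 lower, or 8 and 9 with 75th percentile scaling. Alb, albumin, stood at 0.463 and 0.372 in the EBs and 26.7 and 30.7 in the pancreas (69.0-fold lower), and Ahsg, fetuin A, at 1.27 and 1.84 against 21.0 and 19.6, whereas F2, prothrombin, stood at 2.42 and 1.76 against 0.4 and 0.337, and Fgb at 17.4 and 16.3 against 7.63 and 7.65, both higher. The other fibrinogen genes, Fga and Fgg, were lower in the EBs.

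Neuronal genes stood out as a group in the EBs. Of 29 genes of the neuronal cytoskeleton and synapse 25 were higher and the other 4 were not called, with a median of 2.73. Stmn4, a stathmin of growing axons, stood at 32.5 and 33.6 in the EBs against 0.566 and 0.509 (5.95 ± 0.18, adjusted p = 6.02e-10), and was at the floor in Dox(−) EBs. Dcx, doublecortin, of migrating young neurons, stood at 48.2 and 39.9 against 5.95 and 5.08, and Nefm, a neurofilament subunit, at 12.2 and 10.3 against 1.14 and 1.09. Tubb3, the tubulin often used to stain neurons, stood at 6.14 and 5.14 against 1.06 (1 array) in pancreas. Of the transmitter genes, Gad2, which makes GABA in neurons, stood at 11.8 and 10.5 with the pancreas at 0.27 and 0.273 and both islet arrays at the floor. Th, tyrosine hydroxylase, stood at 41.7 and 37.4 against 2.43 and 2.14, and Slc17a6, the vesicular glutamate transporter, at 6.46 and 5.55 with the pancreas at the floor. Slc17a6 was at the floor in βTC6 cells and islets too, whereas Th, Dcx and Gad2 were high in βTC6 cells (51.1 and 54.1 for Th, 72.5 and 64.8 for Dcx and 33.7 and 35.7 for Gad2). Stmn4 stood at 7.37 and 9.05 in βTC6 cells. Rbfox3 (NeuN) and Nefh, genes of mature neurons, were near the floor in both tissues and were not called (0.378 and 0.541 against 0.576 and 0.558, and 0.347 and 0.281 against 0.27 and 0.27).

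Neuronal transcription and RNA-binding factors were higher for 21 of 27 tested and lower for 4 (median 1.38). Elavl3, an RNA-binding protein of neurons, stood at 9.78 and 8.86 in the EBs and 0.381 and 0.355 in the pancreas (4.66 ± 0.29), and Celf3 at 12.9 and 9.25 against 0.615 and 0.681. Barhl1, a homeobox factor of hindbrain and sensory neurons, stood at 19.1 and 16.9 with the pancreas and the Dox(−) EBs at the floor, at least 66.5-fold higher than in pancreas. It stood at 28.5 on the 1 βTC6 array that measured it and at 1.00 and 0.982 in islets. Nhlh2, a bHLH factor of young neurons, stood at 13.0 and 11.2 with the pancreas at 0.27 and 0.417, of which 1 array was at background. Uncx, at 2.72 and 2.39, and Sox3, at 2.32 and 2.2, were above the floor only on the Dox(+) arrays of the series. Sox11 stood at 58.7 and 56.4 against 6.66 and 6.02 with 77.8 and 71.0 in Dox(−) EBs, and Sox4 at 14.6 and 11.2 against 0.301 and 0.357 with 5.89 and 8.31 in Dox(−) EBs. Of the 2 Sox4 probes only the 1 given here was called. Lower were Neurod4, Dlx1, Dlx2 and Ebf2, and the call of Ebf2 (−0.39) was lost without the first EB array (−0.36, adjusted p = 0.0732) or the first pancreas array (−0.33, adjusted p = 0.102). The proneural genes Neurog1 and Neurog2 were at background in both tissues.

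Other genes among the 15 with the largest positive difference were Camk2n2, an inhibitor of CaM kinase II, Adcy8, a calcium-stimulated adenylate cyclase, and Prdm8, all at background in the pancreas and at 15.4 and 12.0, 10.9 and 10.3 and 10.8 and 10.4 in the EBs. Tmem59l stood at 17.2 and 16.1 against 0.431 and 0.37, Caly, a neuronal vesicle protein, at 22.7 and 22.9 against 0.624 and 0.51, and Ppp1r17, known from Purkinje cells, at 13.9 and 12.7 against 0.442 and 0.319. Of the 2 Caly probes only the 1 given here was called. Tmem59l and Caly were also high in βTC6 cells (109 and 137 and 21.9 and 17.3), while Prdm8 and Ppp1r17 were at the floor there. Genes of glia and neural progenitors did not share a direction. Sox10, the factor of neural crest and Schwann cells, stood at 0.474 and 0.576 in the EBs and 5.3 and 5.07 in the pancreas (−3.31 ± 0.14), S100b at 0.367 and 0.34 against 12.7 and 13.1, and Erbb3 at 5.09 on the 1 EB array that measured it against 30.7 and 28.7. All 3 were lower, while Gfap, the filament of astrocytes and enteric glia, was higher (2.11 and 3.03 against 1.72 and 1.41, 0.70) and Fabp7, Mbp and Ednrb were not called. The call of Gfap was lost without the second EB array (0.44, adjusted p = 0.124) or the second pancreas array (0.56, adjusted p = 0.0939). Over the 14 genes of neural progenitors and glia 4 were higher and 6 lower.

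**Figure D4:**
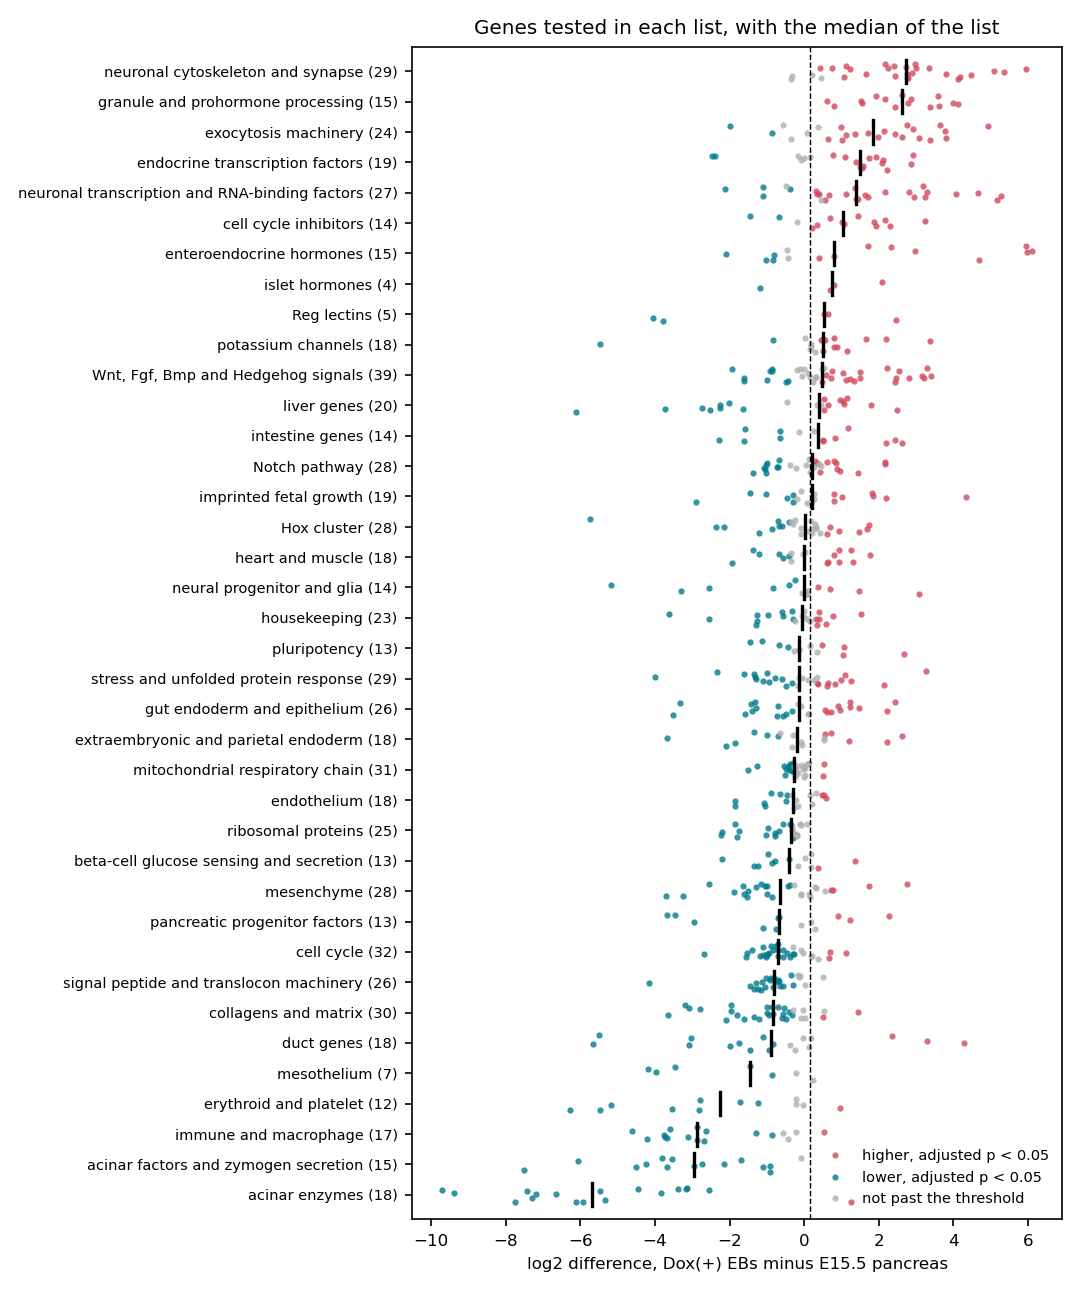
Log2 difference between Dox(+) EBs and E15.5 pancreas for each gene of each list (x axis; 1 row per list, sorted by median), in red where higher in the EBs, blue where lower and grey where not past the threshold, with a black bar at the list's median and a dashed line at 0.15, the median of all named genes. Neuronal and granule lists lie at the positive end and acinar lists at the negative end.

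Cells that accompany the epithelium in an organ were less marked in the EBs. Of 17 immune and macrophage genes 13 were lower and 1 higher (median −2.87). Mrc1, the mannose receptor of tissue macrophages, stood at 0.305 and 0.27 in the EBs, 1 array of which was at background, and 6.99 and 7.04 in the pancreas (−4.61 ± 0.14), and Lyz2 at 0.616 and 0.556 against 7.71 and 8.08. The complement genes C1qa, C1qb and C1qc were 12.8, 8.65 and 12.1-fold lower. Dox(−) EBs had levels of 45.8 and 40.2 for C1qb and 7.97 and 6.56 for Lyz2, all above the levels of the induced EBs. Of 12 erythroid and platelet genes 8 were lower, or 3 where all 4 arrays had to be above background, among them Alas2, the first enzyme of heme synthesis in red cells (0.558 and 0.481 against 40.5 and 40.3), the embryonic globins Hbb-y (0.565 and 0.432 against 17.4 and 18.6) and Hba-x (0.27 and 0.27 against 13.0 and 11.2), and Pf4 of platelets (0.797 and 0.663 against 8.65 and 8.18).

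Endothelial genes differed less, with 3 of 18 higher, 8 lower and 7 not called. Kdr, the receptor for VEGF, was not called, at 20.3 and 19.7 against 23.7 and 24.3 (−0.26 ± 0.14, adjusted p = 0.126), while Tek stood at 1.24 and 1.07 against 4.35 and 4.04 and Vwf at 1.58 and 1.38 against 5.14 and 5.55, both lower. All 18 were above background on both EB arrays, whereas Hba-x, Ppbp, Ptprc and H2-Aa of the blood lists were at background on both. Mesothelial genes, which cover the surface of the organ, were lower for 5 of 7 tested. Wt1 stood at 0.391 and 0.466 in the EBs and 7.79 and 7.86 in the pancreas (−4.19 ± 0.16), and Muc16 was at the floor against 4.43 and 4.04.

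Mesenchymal genes were lower for 16 of 28 tested and higher for 4 (median −0.65), and collagen and matrix genes for 23 of 30 (median −0.84). Barx1, a factor of the mesenchyme of stomach and spleen, stood at 1.78 and 1.38 in the EBs and 21.2 and 19.4 in the pancreas (−3.70 ± 0.15), Dcn, decorin, at 6.82 and 7.79 against 72.1 and 65.6, and Col1a1 at 8.28 and 7.73 against 72.8 and 74.7. Vim (92.9 and 91.5 against 83.1 and 86.7), Fn1 (33.4 and 37.4 against 32.5 and 30.6) and Pdgfra (27.3 and 29.1 against 24.8 and 21.3) were not called. Mesenchymal genes were thus above background in both tissues, with a different balance. Twist1 was higher in the EBs (13.2 and 11.2 against 1.81 and 1.78), as was Mmp2 (24.7 and 24.5 against 9.15 and 9.03). In Dox(−) EBs Col1a1 stood at 127 and 137 and Dcn at 44.3 and 49.6.

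Hox genes record position along the body. Of 28 Hox genes tested 6 were higher, 9 lower and 13 not called, with differences from −5.75 to 1.73 and a median of 0.016 that was −0.025 with quantile normalization and −0.12 with 75th percentile scaling. Hoxa5 stood at 0.491 and 0.49 in the EBs and 26.9 and 26.0 in the pancreas, 53.9-fold lower (−5.75 ± 0.18, adjusted p = 6.88e-10), Hoxb6 at 2.56 and 2.71 against 13.5 and 13.9, and Hoxa4 at the floor against 1.11 and 1.28. Those higher were at low levels, such as Hoxa10 at 0.86 and 0.864 with the pancreas at the floor, except Hoxb2 (3.67 and 3.52 against 2.41 and 2.27). The difference of Hoxa5 was the largest of the 28. Of 19 imprinted genes of fetal growth 7 were higher and 6 lower, beside 39.2% and 27.4% of all named genes. Peg10, a retrotransposon-derived placental gene, stood at 41.4 and 36.7 in the EBs and 1.98 and 1.9 in the pancreas, whereas H19 stood at 28.1 and 31.7 against 234 and 209 (saturated) and Cdkn1c at 29.8 and 36.6 against 94.3 and 88.2. Igf2, which shares its locus with H19, was not called, at 185 and 173 (saturated) against 171 and 133.

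Of 39 genes for secreted signals and their antagonists 19 were higher and 9 lower. Gdf6, a BMP-type ligand, stood at 28.9 and 27.4 in the EBs and 2.73 and 2.58 in the pancreas (3.41 ± 0.13), and Bmp4 at 17.2 and 16.3 against 2.46 and 2.29, while Bmp7 was lower (15.2 and 14.6 against 47.8 and 44.0). Among fibroblast growth factors, Fgf10, the mesenchymal signal that keeps pancreatic progenitors dividing, stood at 1.6 and 1.5 against 0.655 and 0.46, and Fgf7 at 2.66 and 2.38 with the pancreas at the floor, both higher. The antagonists Nog (2.93 and 3.08 against 0.507 and 0.533), Sfrp1 (44.7 and 44.8 against 19.1 and 16.5) and Sfrp5 (2.89 and 2.41 with the pancreas at the floor) were higher and Sfrp2 was lower (1.12 and 1.06 against 3.86 and 4.52). Ligands and antagonists thus both appear on the higher side. BMP4, bFGF and activin A had been added to the EB medium as proteins at an earlier stage.

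Notch signalling holds progenitors back from the endocrine fate. Its 28 tested genes gave 11 higher and 9 lower, or 9 and 10 with 75th percentile scaling, with a median of 0.21. Of all named genes 39.2% were higher and 27.4% lower. The receptor Notch1 was lower, at 11.8 and 10.7 against 22.7 and 24.7 (−1.08 ± 0.11), and Notch2 was higher, at 1.66 and 1.48 against 0.89 and 0.73. Notch4, the gene that 1 label names as induced, stood at 0.877 on the 1 Dox(+) array that measured it, 0.637 and 0.799 in Dox(−) EBs and 1.2 and 1.7 in pancreas, and its call (−0.70, adjusted p = 0.034), which assumes that the lone array varies like the other groups, was lost without the second pancreas array (−0.45, adjusted p = 0.193). The ligands Dll1, Dll3, Jag1 and Jag2 were not called. The target Hey1 stood at 14.3 and 13.9 against 3.1 and 3.23 (2.16 ± 0.12), and Mfng, a fringe enzyme that modifies Notch receptors, at 11.0 and 8.76 against 1.95 and 2.41, both higher. The targets Hey2, Heyl and Nrarp were higher too, whereas Hes1 was lower and at background on both EB arrays. Hes5 was not tested.

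Cell cycle genes were lower in the EBs for 23 of 32 tested and higher for 3 (median −0.71). Mki67, a protein of dividing cells, stood at 31.1 and 32.0 in the EBs and 92.2 and 94.0 in the pancreas (−1.56 ± 0.09, adjusted p = 6.14e-08), Top2a at 13.9 and 12.0 against 35.7 and 38.6 and Cdk1 at 37.0 and 34.0 against 75.4 and 75.7. Ccnd1, cyclin D1, showed the largest difference of the list, at 0.744 and 0.651 against 4.25 and 4.72, while Ccnd2, the D cyclin of islets, was higher (59.9 and 55.7 against 37.2 and 35.8). Of 14 inhibitors and antiproliferative genes 11 were higher and 2 lower. Cdkn2b, the p15 inhibitor, stood at 16.2 and 13.9 against 1.66 and 1.5, Cdkn1a, p21, at 24.5 and 21.2 against 5.02 and 5.2, and Gadd45a at 47.7 and 39.0 against 11.4 and 11.6. In Dox(−) EBs the levels were 30.4 and 28.9 for Cdkn2b, 40.3 and 45.8 for Cdkn1a and 10.2 and 14.2 for Gadd45a. Pluripotency genes gave 4 higher, 4 lower and 5 not called, or 2 higher and 3 lower with a floor of 1. Pou5f1 (Oct4) was not called (2.22 and 2.11 against 2.28 and 2.48), Nanog was near the floor in both, and Sall4 was higher (5.62 and 4.61 against 0.777 and 0.835).

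Of 18 heart and muscle genes 8 were higher and 6 lower, or 8 and 8 with 75th percentile scaling, and the levels of cardiac genes in Dox(+) EBs were low, with Myl7, the atrial light chain, at 3.16 and 3.34 against 1.62 and 1.79, compared with 71.3 and 102 in Dox(−) EBs. Of 18 genes in a list of extraembryonic tissues, most of them of the endoderm, 5 were higher and 6 lower. Elf5, a factor of trophoblast and of secretory epithelia, was at the floor in the EBs and stood at 3.41 and 3.47 in the pancreas, and Dab2 stood at 3.04 and 2.8 against 12.3 and 12.8, both lower. 

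Housekeeping groups differ between these arrays too. The machinery that carries secretory proteins into the ER was lower for 21 of 26 genes tested and the other 5 were not called (median −0.80). Rpn1, a ribophorin of the oligosaccharide transferase, stood at 55.9 and 56.8 in the EBs and 146 and 162 in the pancreas (−1.45 ± 0.12), and Sec61g of the translocon at 67.5 and 76.3 against 172 and 177. Of 29 stress and unfolded protein response genes 10 were higher and 13 lower. Sdf2l1 (14.3 and 12.0 against 68.3 and 64.7) and Creld2 (34.7 and 31.7 against 82.3 and 84.2), both of the ER, were lower, whereas Hspa5, the chaperone BiP, was higher (56.3 and 58.4 against 37.3 and 36.5), and so were the immediate early genes Fos (2.67 and 2.6 against 0.277 and 0.27, with 1 pancreas array at background) and Egr1 (5.34 and 3.85 against 0.995 and 1.06). Respiratory chain genes were lower for 15 of 31 and higher for 2 (median −0.27). Their lower count was 8 without the second EB array, 9 with quantile normalization (median −0.061) and 20 with 75th percentile scaling. Ribosomal protein genes were lower for 16 of 25 (median −0.35), or for 11 with quantile normalization (median −0.12), and 11 of the 25 were saturated on all 4 arrays. Among 23 genes used as references 7 were higher and 10 lower, with a median of −0.064 that was 0.087 with quantile normalization. These counts were 3 and 8 without the first EB array, 4 and 9 without the first pancreas array and 4 and 11 with 75th percentile scaling. Actb (257 and 234 against 248 and 217, all saturated) and Pgk1 (62.4 and 81.8 against 74.3 and 69.9) were not called.

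Some of the genes with the largest differences separated EB arrays of both kinds from all others. Cox7a2, a subunit of cytochrome oxidase, stood at 0.404 and 0.79 without Dox and 0.751 and 0.641 with Dox, and at 111 and 97.5 in pancreas, 153 and 201 in βTC6 cells and 79.1 and 74.2 in islets. Thumpd1 stood at 0.27 and 0.305 and 0.27 and 0.27 in the EBs against 22.5 and 22.6 in pancreas and 21.3 and 24.8 in βTC6 cells, and Slc9a3r1, the scaffold NHERF1, at 0.481 and 0.561 and 0.364 and 0.305 against 37.8 and 35.3 and 32.3 and 39.0. Cbs, Ndufs5-ps, Dnajc3 and Spcs3 had the same order, and Tmco2 had the opposite one, at 18.1 and 16.7 and 18.5 and 17.9 in the EBs and at the floor in every other group. Hprt, the locus that holds the cassette in these ES cells, stood at 1.11 and 1.23 without Dox, 2.46 and 2.48 with Dox and 29.7 and 31.5 in pancreas (−3.63 ± 0.12). Dnajc3, Spcs3 and Rps9 in this group were chosen for the plot after their values were seen. Array slides and the ES cell origin of the EBs go with this order, and their part in it was not tested. Hspe1, the mitochondrial chaperonin HSP10, set the pancreas apart instead, at 119 and 129 there, 1.11 and 1.39 in the induced EBs, 3.45 and 2.69 in islets and 5.13 and 6.19 in the insulinoma line.

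**Figure D5:**
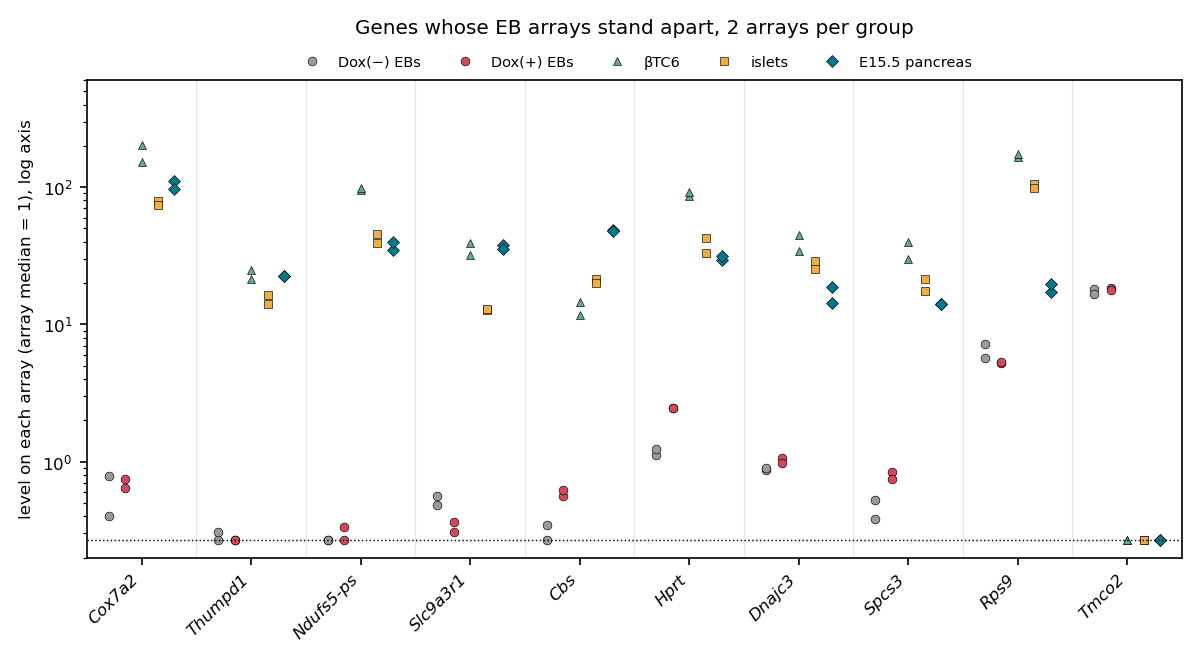
Level of 10 genes on each of the 10 arrays (log axis, array median = 1; dotted line, floor of 0.27), chosen because EB arrays of both kinds stand apart from the pancreas, βTC6 and islet arrays. In 9 of the 10 genes the 4 EB arrays are the lowest, and in Tmco2 they are the highest.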

How the data were processed

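The authors hybridised RNA of each sample to a 1-colour CodeLink mouse whole genome array with 36227 spots, 34967 of them discovery probes. The deposited values are normalized intensities from CodeLink Expression Analysis 4.1.0.29054. Each is the spot mean less the local background median, relative to the median discovery probe of that array. Spots flagged by the authors as masked, contaminated or irregular were treated as missing, and control spots were left out. Between 66.0% and 74.3% of discovery probes lay above background per array, and 60 to 114 were saturated. With 2 arrays per group, the number of arrays limits the precision.

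Levels were floored at 0.27 and taken as log2. In limma 3.58.1 (R 4.3.3), each of the 5 groups received its own mean over the 10 arrays, with trended and robust empirical Bayes moderation and Benjamini-Hochberg adjustment at 0.05. The procedure was checked on simulated data. Python 3.11.15 served for tables, with numpy 2.4.6 and pandas 2.3.3, and plots were drawn in matplotlib 3.10.9. Of the discovery probes 21615 have 1 gene symbol in the platform annotation, 681 have several and 12671 have none and stayed unnamed. A gene is given by its probe with the highest mean over the 4 arrays. Of 3003 genes with several probes, 258 had probes called in both directions. Promoters are those of RefSeq on GRCm38.p6.

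The comparison, the 38 gene lists and their members were chosen with earlier results of these data known. Genes named are the 15 largest differences in each direction with arrays that do not overlap, in each list up to 8 called members with the largest difference, those called against the list's majority and up to 4 not called with the highest level, and genes that the study names for its arrays or RT-PCR. Bhlha15, Cdh1, Clps, Cpe, Fgb, Fgf10, Hnf4a, Notch2, Pdx1, Pgk1, Ptprn2, Rbpjl, Sfrp1 and Try5 lie outside this rule and were named after their values were seen. Alternatives were other scalings, floors, filters and models, a 2-fold minimum, a block on replicate number and leaving out each array.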

Additional observations from a re-analysis of the deposited data

How the results depend on the processing

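Against E15.5 pancreas, the counts of 9325 probes higher and 7592 lower in Dox(+) EBs stayed within 1.5 times under every alternative except a 2-fold minimum, which by its construction left 3560 higher and 3387 lower. Leaving out each of the 4 arrays in turn gave 7496 to 8290 higher and 6362 to 6662 lower, with the lone array assumed to vary like the other groups. With quantile normalization 8997 were higher and 8153 lower, and with a floor of 1 the counts were 6738 and 5516. Scaling to the 75th percentile moved the median over all probes from 0.10 to −0.031 and the share of calls that were higher from 55.1% to 46.2%. Deviations of same-numbered Dox(+) and pancreas arrays correlated at −0.030 across probes. With only 1 deviation per group, this value cannot tell whether the arrays were handled in pairs. A fit with the replicate number as a block gave 9185 higher and 7469 lower. A fit of the 4 arrays alone, without spread from the other groups, gave 10167 and 8186. Of 482 genes named by the rule 370 were called, and 116 of these lost their call in at least 1 of 17 alternatives, 92 genes doing so under the 2-fold minimum and 54 with a floor of 1. Atf4 reversed, from −0.05 and not called to 0.25 with quantile normalization (adjusted p = 0.0198) and 0.25 with normexp and quantile normalization (adjusted p = 0.0168), and the cause was not tested. All 15 granule genes were higher under each alternative except the 2-fold minimum, which left 13, and 17 acinar enzymes were lower under each except the filter on all 4 arrays, which left 14. Signals at or under 0.27 and saturated spots have no order, which limits values such as those of Cela3b, Gip and ribosomal protein genes.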
